A study of Homo sapiens with 480 samples.

Results

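The 4 inhibitor of DNA binding genes (ID1, ID2, ID3 and ID4), the ligand BMP4, the secreted BMP antagonist GREM1 and the inhibitory SMAD genes SMAD6 and SMAD7 were followed in single human fibroblasts during reprogramming. These 8 genes were chosen by name, as part of bone morphogenetic protein (BMP) signalling, from the 27021 genes listed in each expression table. The choice was made with earlier results of these data known, so member counts set beside all genes are descriptions only. All 8 were present in all 5 tables. The study profiled mRNA of 480 single cells on Fluidigm C1 chips, in 5 groups of 96. All cells derive from BJ, an established line of human skin fibroblasts. The first group is BJ cells labelled WT, without expressed factors. The other groups are BJ cells at day 2, day 8 and day 16 after viral expression of OSKM (the reprogramming factors OCT4, SOX2, KLF4 and MYC) was induced. Day 16 cells were sorted into a fraction positive and a fraction negative for TRA-1-60, a surface antigen of human pluripotent stem cells. The virus and the promoter that drives the factors are not given in the sources used here. The labels name no separate cultures, so each group was treated as 1 sample: no test between groups was possible, no p-value is given, and differences are differences between these sets of cells. Which chip held which cells is not given in the sources used here, so chip and group cannot be told apart.

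BMP ligands bind receptor kinases that phosphorylate SMAD1, SMAD5 and SMAD9. With SMAD4, these enter the nucleus and activate target genes, among which ID1, ID2 and ID3 are the best known direct targets. ID proteins lack a DNA-binding domain and hold bHLH transcription factors away from DNA. SMAD6 and SMAD7 are themselves induced by the pathway and block it inside the cell, while GREM1 binds ligands such as BMP2 and BMP4 outside the cell. In human pluripotent cells, added BMP4 is known for driving differentiation, and skin fibroblasts are a known source of GREM1.

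The values are FPKM (fragments scaled to transcript length and to sequencing depth), rescaled here so that each cell sums to 1000000. Such values are per length, so that levels can be set side by side between genes. Of the 480 cells, 460 had at least 2000 genes at a value of 1 or more and ACTB or GAPDH at 1 or more, and were kept: 92 BJ cells, 96 at day 2, 92 at day 8, 95 TRA-1-60 positive and 85 TRA-1-60 negative cells. The median number of genes at 1 or more per cell lay between 5678 and 5915 in the 5 groups, but 32 of the 95 TRA-1-60 positive cells had under 4000 such genes, against 3 to 15 cells in the other groups. A gene is called detected in a cell at a value of 1 or more, and shares of cells carry 95% Clopper-Pearson intervals that cover counting error only. Read depth is unknown from these files. Where a gene is detected in 0 cells of a group, a rough limit of 3 divided by the group size still allows 3.13% to 3.53% of cells. The sum of 10 fibroblast markers had a median of 11856 over BJ cells, 5314 at day 2, 2436 at day 8, 1533 for TRA-1-60 positive and 11845 for negative cells. The sum of 8 pluripotency markers had a median of 2521 over positive and 18.5 over negative cells. Of these 8, 1 was found in at least 50% of negative cells, while LIN28A was listed at 0 in every negative cell. Of 7 epithelial markers, 2 were found in at least 50% of negative cells, while CDH1 and ESRP1 were listed at 0 in all.

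ID1, ID2 and ID3 lead the results below, and the 250 bases before their start sites are shown because SMAD binding motifs can be read in them. The sequences are from RefSeq on GRCh38.p14, while the tables were made on hg19, so genes were matched by symbol only. Capitals mark the SMAD box GTCT or its reverse complement AGAC. The ID1 window is chr20:31605039-31605288 on the plus strand, the ID2 window chr2:8681806-8682055 on the plus strand and the ID3 window chr1:23559502-23559751 on the minus strand, each written 5′ to 3′ along its gene.
ID1: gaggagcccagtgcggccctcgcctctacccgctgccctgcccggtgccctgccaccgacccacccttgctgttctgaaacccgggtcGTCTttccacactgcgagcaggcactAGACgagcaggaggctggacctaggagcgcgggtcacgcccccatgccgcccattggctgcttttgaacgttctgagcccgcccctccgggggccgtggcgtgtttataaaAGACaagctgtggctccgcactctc
ID2: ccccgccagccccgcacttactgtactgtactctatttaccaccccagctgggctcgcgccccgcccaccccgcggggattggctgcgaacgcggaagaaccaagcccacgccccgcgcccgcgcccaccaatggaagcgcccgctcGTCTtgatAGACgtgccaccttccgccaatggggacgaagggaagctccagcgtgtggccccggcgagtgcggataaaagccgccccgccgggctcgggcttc
ID3: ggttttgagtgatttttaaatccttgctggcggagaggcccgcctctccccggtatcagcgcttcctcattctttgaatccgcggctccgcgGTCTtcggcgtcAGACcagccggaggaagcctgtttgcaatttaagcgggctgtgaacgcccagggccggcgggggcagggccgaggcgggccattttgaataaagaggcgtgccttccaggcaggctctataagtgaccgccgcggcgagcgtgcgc
The ID1 window holds 3 SMAD boxes, ID2 holds 2 and ID3 holds 2, counted on both strands. In ID2 they start 103 and 95 bases before the start site, and in ID3 158 and 146 bases, as close pairs with opposite orientation. A motif this short is common: 77.5% of 35116 RefSeq promoter windows of the same length hold it. The GC-rich SMAD motif GGCGCC, present in 16.4% of windows, has no match in these 3 windows, which says nothing of sites elsewhere. CCAAT, found in 32.01% of windows on either strand, occurs once in ID1, 3 times in ID2 and not in ID3. TATAAA, found in 10.7% of windows, occurs only in ID1 of the 3, as a pair of overlapping matches on opposite strands. A match is a run of letters and not a measured binding site.

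Over all kept cells, ID1 was the most abundant member in BJ cells and was lowest at day 8 and in the TRA-1-60 positive fraction. In BJ cells it ranged from 0 to 5551 with a median of 541 and a mean of 973, and it was detected in 89 of 92 cells (96.7%). At day 2 the median was 175 and the mean 677, in a range from 0 to 10532, with 85 of 96 cells detected (88.5%). At day 8 the median was 70.2 and the mean 259, in a range from 0 to 2430, with 70 of 92 cells detected (76.1%). The typical cell thus held less ID1 at each of these stages, while single cells with high values were present throughout. TRA-1-60 positive cells had a median of 92.9 and a mean of 254, in a range from 0 to 1922, with 69 of 95 detected (72.6%). TRA-1-60 negative cells had a median of 332 and a mean of 532, in a range from 0 to 2699, with 76 of 85 detected (89.4%). The interquartile ranges were 221 to 1102 in BJ cells, 31.9 to 589 at day 2, 3.30 to 306 at day 8, 0 to 407 for positive cells and 126 to 734 for negative cells. All neighbours in this order overlapped, and the means of day 8 and of the positive fraction were nearly equal. Among cells with at least 4000 genes the positive fraction stood higher, with a median of 193, a mean of 311 and 85.7% detected. Day 8 cells with at least 4000 genes had a median of 84.1, a mean of 269 and 77.3% detected.

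ID3 had its highest level in BJ cells, as ID1 did, but the order of the sorted fractions depended on the measure. Over all kept cells the positive fraction was higher by mean and slightly lower by median. In BJ cells ID3 ranged from 0.066 to 2213 with a median of 343 and a mean of 464, and was detected in 90 of 92 cells (97.8%). At day 2 its median was 36.6 and its mean 108, in a range from 0 to 1363, with 68 of 96 cells detected (70.8%). At day 8 the median was 9.01 and the mean 87.2, in a range from 0 to 2109, with 54 of 92 cells detected (58.7%). Most of the difference from BJ cells was thus already present at day 2. TRA-1-60 positive cells had a median of 85.8 and a mean of 260.4, in a range from 0 to 2892, with 72 of 95 detected (75.8%). TRA-1-60 negative cells had a median of 93.3 and a mean of 154, in a range from 0 to 935, with 67 of 85 detected (78.8%). Over all kept cells the medians and detected shares of the sorted fractions were close. Among cells with at least 4000 genes the median was 192 for positive and 94.1 for negative cells, with 92.1% and 81.7% detected, and the 32 positive cells under 4000 genes had a mean of 38.99.

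ID2, which also has roles in cell cycle control and lymphoid development, was detected in the smallest share of cells at day 8. BJ cells ranged from 0 to 4427 with a median of 132 and a mean of 276, and 89 of 92 were detected (96.7%). Day 2 cells ranged from 0 to 1302 with a median of 59.7 and a mean of 159, and 85 of 96 were detected (88.5%). Day 8 cells ranged from 0 to 1182 with a median of 0 and a mean of 40.2, and 33 of 92 were detected (35.9%, interval 26.1% to 46.5%). Most day 8 cells were therefore listed below the detection limit for ID2. TRA-1-60 positive cells ranged from 0 to 1936 with a median of 18.5 and a mean of 126, and 59 of 95 were detected (62.1%). TRA-1-60 negative cells ranged from 0 to 673 with a median of 52.4 and a mean of 121, and 65 of 85 were detected (76.5%). Both day 16 fractions stood above day 8 by mean and by share, and below BJ cells.

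ID4, known for roles in neural development, was low in every group. BJ cells had a mean of 3.17, day 2 cells 0.722, day 8 cells 0.755, TRA-1-60 positive cells 5.15 and negative cells 0.836. It was detected in 25 of 92 BJ cells (27.2%) and 21 of 95 positive cells (22.1%), but in 7 cells of each other group (7.29% to 8.24%). At a limit of 5 the share was 16.3% of BJ and 2.35% of negative cells. The highest single value was 102, in a positive cell, and the median was 0 in all 5 groups.

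**Figure D1:**
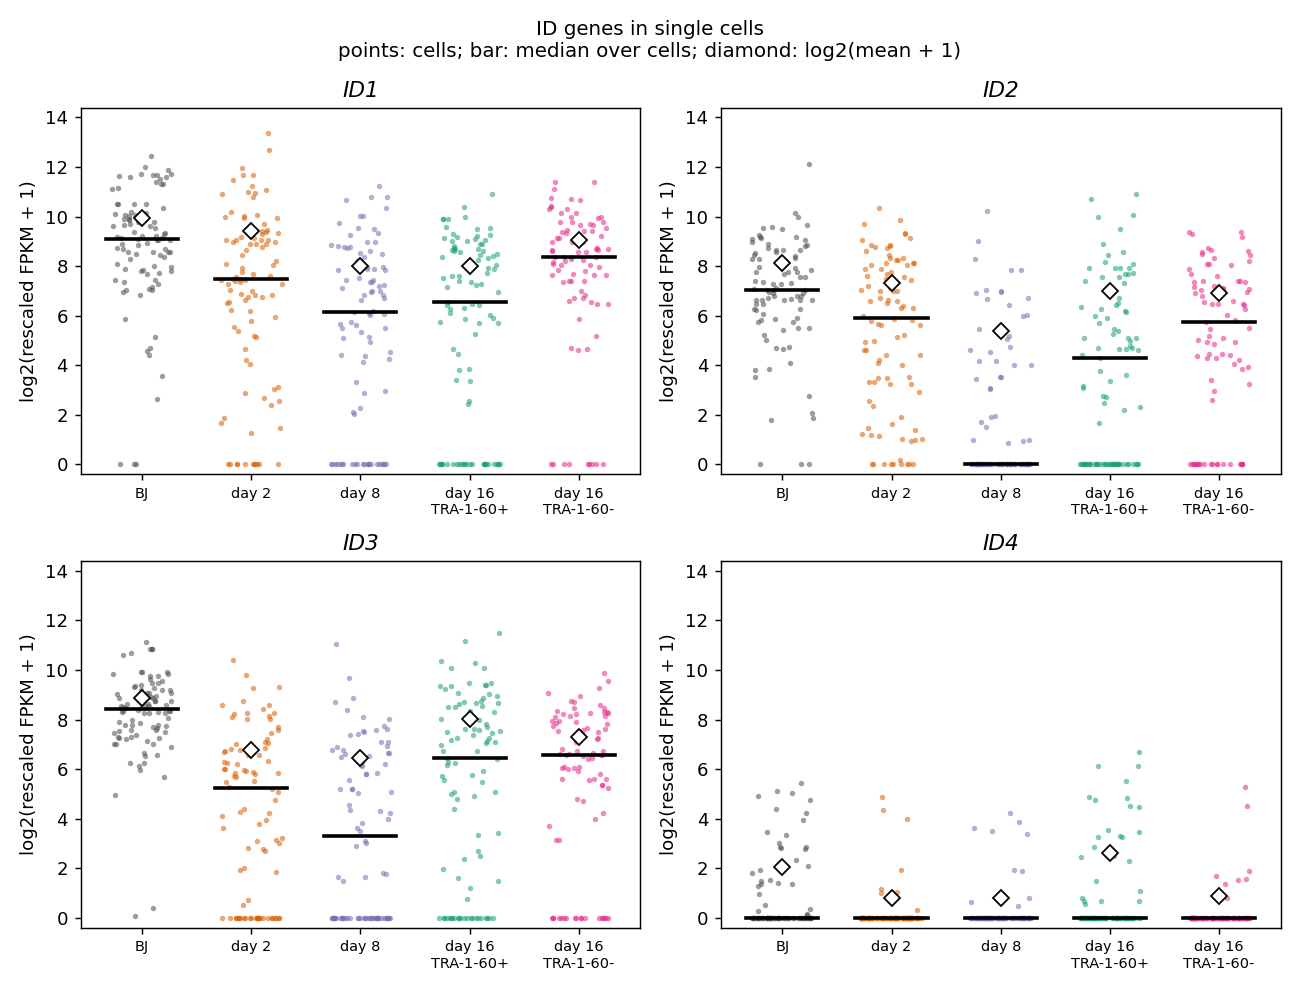
Values of ID1, ID2, ID3 and ID4 in each kept cell, as log2(rescaled FPKM + 1) on the vertical axis, for BJ cells, day 2, day 8 and the day 16 TRA-1-60 fractions. Points are cells, bars are medians over cells and diamonds are log2(mean + 1); the ID2 bar lies at 0 at day 8, where 33 of 92 cells were detected, and the ID4 bars lie at 0 in all groups.

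The number of ID genes found together in 1 cell also differed between groups. ID1, ID2 and ID3 were all detected in 86 of 92 BJ cells (93.5%), in 60 of 96 at day 2 (62.5%) and in 25 of 92 at day 8 (27.2%). The positive fraction had 41 of 95 such cells (43.2%) and the negative fraction 54 of 85 (63.5%). Cells with none of the 3 numbered 0 of 92 in BJ (interval up to 3.93%), 4 at day 2, 11 at day 8, 7 among positive and 2 among negative cells. Within groups the 3 genes mostly varied in the same direction: Spearman's rho was above 0 in 14 of 15 combinations of a gene pair and a group. It reached 0.55 for ID1 with ID3 at day 2, and was -0.01 for ID2 with ID3 in the positive fraction. These correlations run over cells of 1 group, treated as 1 sample, that differ in genes detected, and are descriptions only.

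BMP4, the ligand, was nearly absent from the fibroblasts and was found from day 8 on. It was detected in 2 of 92 BJ cells (2.17%) and 2 of 96 day 2 cells (2.08%). Its mean was 0.954 in BJ cells, or 0.058 without 1 cell at 82.5, and 0.027 at day 2. At day 8 it was detected in 24 of 92 cells (26.1%, interval 17.5% to 36.3%), with a mean of 18.2 and a highest value of 382. In the TRA-1-60 positive fraction 51 of 95 cells were detected (53.7%, interval 43.2% to 63.98%), with a median of 1.73 and a mean of 410.1. In the TRA-1-60 negative fraction 31 of 85 were detected (36.5%, interval 26.3% to 47.6%), with a median of 0 and a mean of 83.4. Cells with BMP4 were thus present in both fractions, and over all kept cells the intervals of their shares overlap. Among cells with at least 4000 genes the shares lay further apart. There BMP4 was detected in 38 of 63 positive cells (60.3%) and 31 of 82 negative cells (37.8%). The mean of the positive fraction rests on few cells: its highest cell was at 13504, its 10 highest cells held 85.8% of the summed value, and the mean was 271 without the highest cell. The highest cell of the negative fraction was at 1126. The 63 positive cells with at least 4000 genes had a mean of 129, against 86.4 in the 82 such negative cells, and 19 cells of each set were at 100 or more. The 32 positive cells under 4000 genes had a mean of 964, or 559.7 without the highest cell, with 7 cells at 100 or more. The part of gene number per cell in the BMP4 level was not tested.

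GREM1 was detected in every BJ cell and in few cells of the TRA-1-60 positive fraction. In BJ cells it ranged from 1.72 to 1391 with a median of 160.1 and a mean of 248, and was detected in all 92 cells. At day 2 it ranged from 0 to 1836 with a median of 12.6 and a mean of 101, and was detected in 67 of 96 cells (69.8%). At day 8 the mean was 10.6 and the highest value 166, with 22 of 92 cells detected (23.9%). In the TRA-1-60 positive fraction 4 of 95 cells were detected (4.21%), with a mean of 0.276 and a highest value of 12.8. In the TRA-1-60 negative fraction 28 of 85 were detected (32.9%), with a mean of 7.99 and a highest value of 127. The negative fraction therefore stood close to day 8 and far below BJ cells in GREM1, although its fibroblast marker sum was close to that of BJ cells. The share at day 2 moves with the detection limit: it was 90.6% at 0.1 or more and 57.3% at 5 or more.

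SMAD7, the broader inhibitor of TGF-beta and BMP receptors, had intermediate levels with its lowest mean at day 8. BJ cells had a median of 9.56 and a mean of 36.7, with 57 of 92 detected (61.96%) and a highest value of 674. Day 2 cells had a median of 0.901 and a mean of 23.4, with 46 of 96 detected (47.9%). Day 8 cells had a mean of 7.09 with 28 of 92 detected (30.4%). The positive fraction had a mean of 24.6 with 44 of 95 detected (46.3%), and the negative fraction a median of 13.3 and a mean of 37.2 with 55 of 85 detected (64.7%). The negative fraction was close to BJ cells in both mean and share. Among the positive cells with at least 4000 genes the share was 63.5%, nearer that of the negative fraction. SMAD6, which acts mainly on BMP receptors, was near the limit of detection everywhere. Its means were 0.689, 0.551, 0.523, 0.488 and 1.72 in BJ, day 2, day 8, positive and negative cells, and the last was 0.450 without 1 cell at 108. It was detected in 14 of 92, 19 of 96, 22 of 92, 14 of 95 and 6 of 85 cells in that order. These shares rest on the limit: at a limit of 5, the share of BJ cells was 4.35%, that of day 2 cells 1.04% and that of day 8 cells 1.09%.

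**Figure D2:**
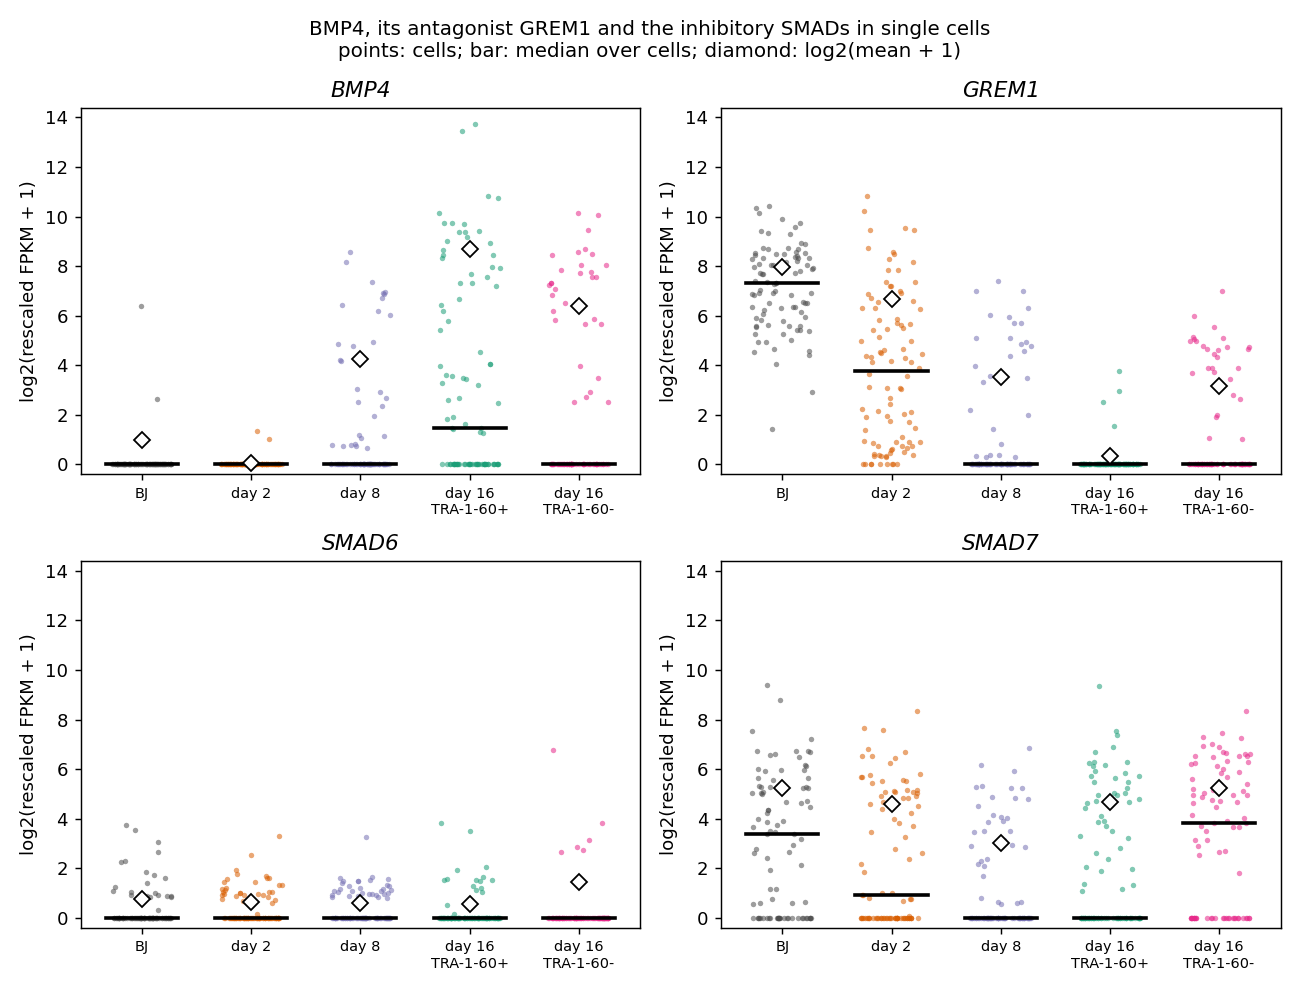
Values of BMP4, GREM1, SMAD6 and SMAD7 in each kept cell, as log2(rescaled FPKM + 1) on the vertical axis, for the 5 groups. Points are cells, bars are medians and diamonds are log2(mean + 1); GREM1 lies above 0 in all 92 BJ cells and in 4 of 95 TRA-1-60 positive cells, and BMP4 in 51 of the latter.

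Whether cells with more of the antagonist GREM1 hold less ID transcript was examined within each group, since the groups differ in both. The ID level of a cell was taken as the mean of log2(value + 1) over ID1, ID2 and ID3. Its median over cells was 8.07 in BJ, 5.79 at day 2, 3.40 at day 8, 5.05 for TRA-1-60 positive and 6.63 for negative cells, with SDs over cells of 1.71, 2.68, 2.46, 2.45 and 2.44. Spearman's rho of GREM1 with the ID level was 0.19 over 92 BJ cells, 0.43 over 96 day 2 cells and 0.27 over 92 day 8 cells. Cells with more GREM1 thus tended to have a higher, not lower, ID level at day 2 and day 8. By gene, the rho of GREM1 at day 2 was 0.32 with ID1, 0.31 with ID2 and 0.46 with ID3. At day 8, with GREM1 detected in 22 of 92 cells, it was 0.07, 0.18 and 0.32, so the relation there was mainly with ID3. In BJ cells the rho with the ID level was 0.050 on FPKM as deposited, so the relation there depends on the scaling. The rho was -0.003 over 95 positive cells, of which 4 had GREM1, and -0.11 over 85 negative cells. These values are set beside the rho of every gene found in at least 20% of a group's cells. The GREM1 value was above that of 85.6% of 8824 genes in BJ cells, 98.9% of 8904 genes at day 2 and 96.8% of 9139 genes at day 8, and above 12.6% of genes in the negative fraction. No rank is given for the positive fraction, where GREM1 was detected in 4.21% of cells. Holding the number of genes per cell fixed, the rho was 0.18, 0.43, 0.24, -0.14 and -0.14 in the 5 groups in the same order. The 10 fibroblast markers had a median rho with the ID level of 0.25 in BJ (range 0.12 to 0.36), 0.32 at day 2 (0.04 to 0.44) and 0.17 at day 8 (0.06 to 0.34), and 9, 1 and 1 of the 10 were above GREM1. For positive cells the median was 0.04 (range -0.17 to 0.27), and for negative cells 0.12 (range 0.03 to 0.40), with all 10 above GREM1 in the latter. The part of fibroblast content in the GREM1 relation was not tested.

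**Figure D3:**
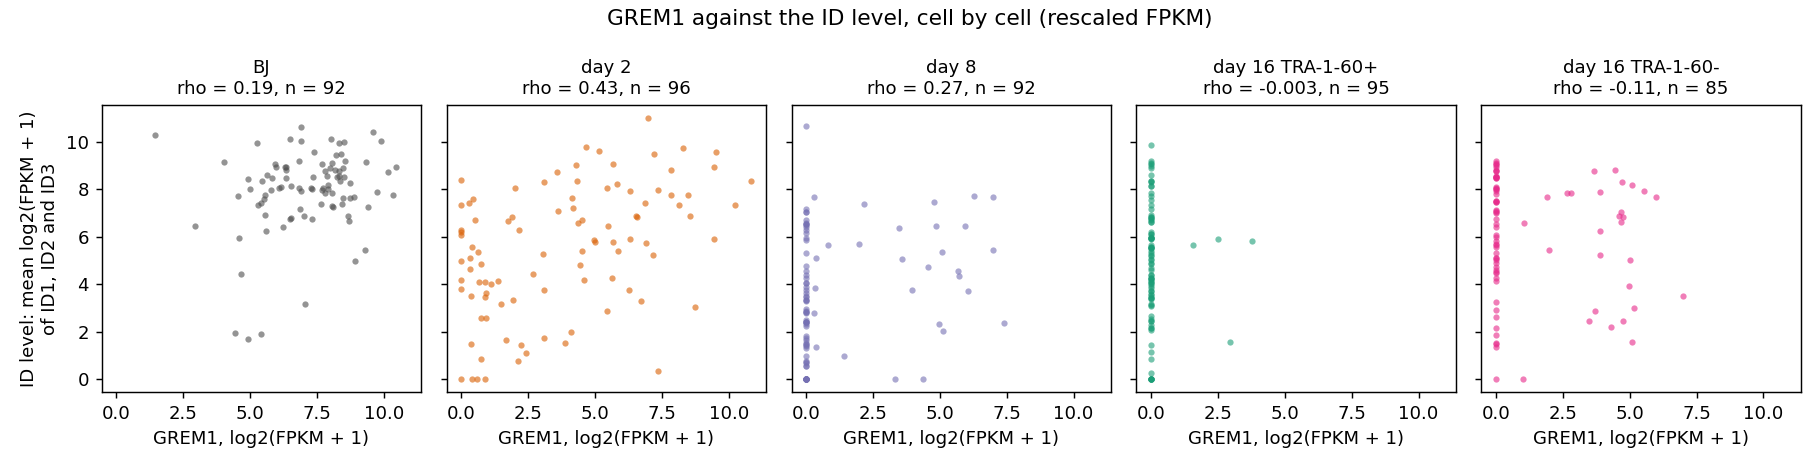
GREM1 as log2(rescaled FPKM + 1) on the horizontal axis against the ID level (mean log2 of ID1, ID2 and ID3) on the vertical axis, 1 panel per group and 1 point per cell. The cloud slopes upward at day 2 (rho 0.43, 96 cells), and in the TRA-1-60 positive fraction all but 4 of 95 cells are below the detection limit for GREM1.

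Joint detection was counted as well. At day 2, GREM1 and ID3 were both detected in 51 cells, ID3 alone in 17, GREM1 alone in 16 and neither in 12. ID1 at day 2 was found with GREM1 in 63 cells and without it in 22, while 4 cells had GREM1 alone and 7 had neither. So 4 of the 67 day 2 cells with GREM1 lacked ID1, and 7 of the 29 cells without GREM1 lacked it. BMP4 and its antagonist were both detected in few cells. At day 8, 5 cells had both, 19 had BMP4 alone, 17 had GREM1 alone and 51 had neither. In the negative fraction 10 cells had both, 21 BMP4 alone, 18 GREM1 alone and 36 neither, and in the positive fraction the counts were 3, 48, 1 and 43. In the negative fraction BMP4 was thus found in 10 of 28 cells with GREM1 and 21 of 57 without it, nearly the same share.

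Of the other members, SMAD7, itself a pathway target, had a rho with the ID level of 0.31 in BJ, 0.30 at day 2, 0.22 at day 8, 0.29 for positive and 0.16 for negative cells. In the positive fraction it was 0.07 with the number of genes held fixed. There the ID level had a rho of 0.59 with the number of genes detected, against 0.15 to 0.27 in the other groups, and the median rho over all genes was 0.24. BMP4 had a rho with the ID level of 0.04 at day 8, 0.23 for positive and 0.10 for negative cells. With the number of genes held fixed these were -0.01, 0.24 and 0.05. The BMP4 value for positive cells thus did not fall, unlike that of SMAD7. Before the number of genes was held fixed, BMP4 was above 47.5% of genes in positive cells, near the median gene, and SMAD7 above 63.3%. In positive cells the rho of BMP4 was 0.30 with ID2, 0.12 with ID1 and 0.13 with ID3. A secreted ligand acts on other cells too, and ligand in the medium was not measured.

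**Figure D4:**
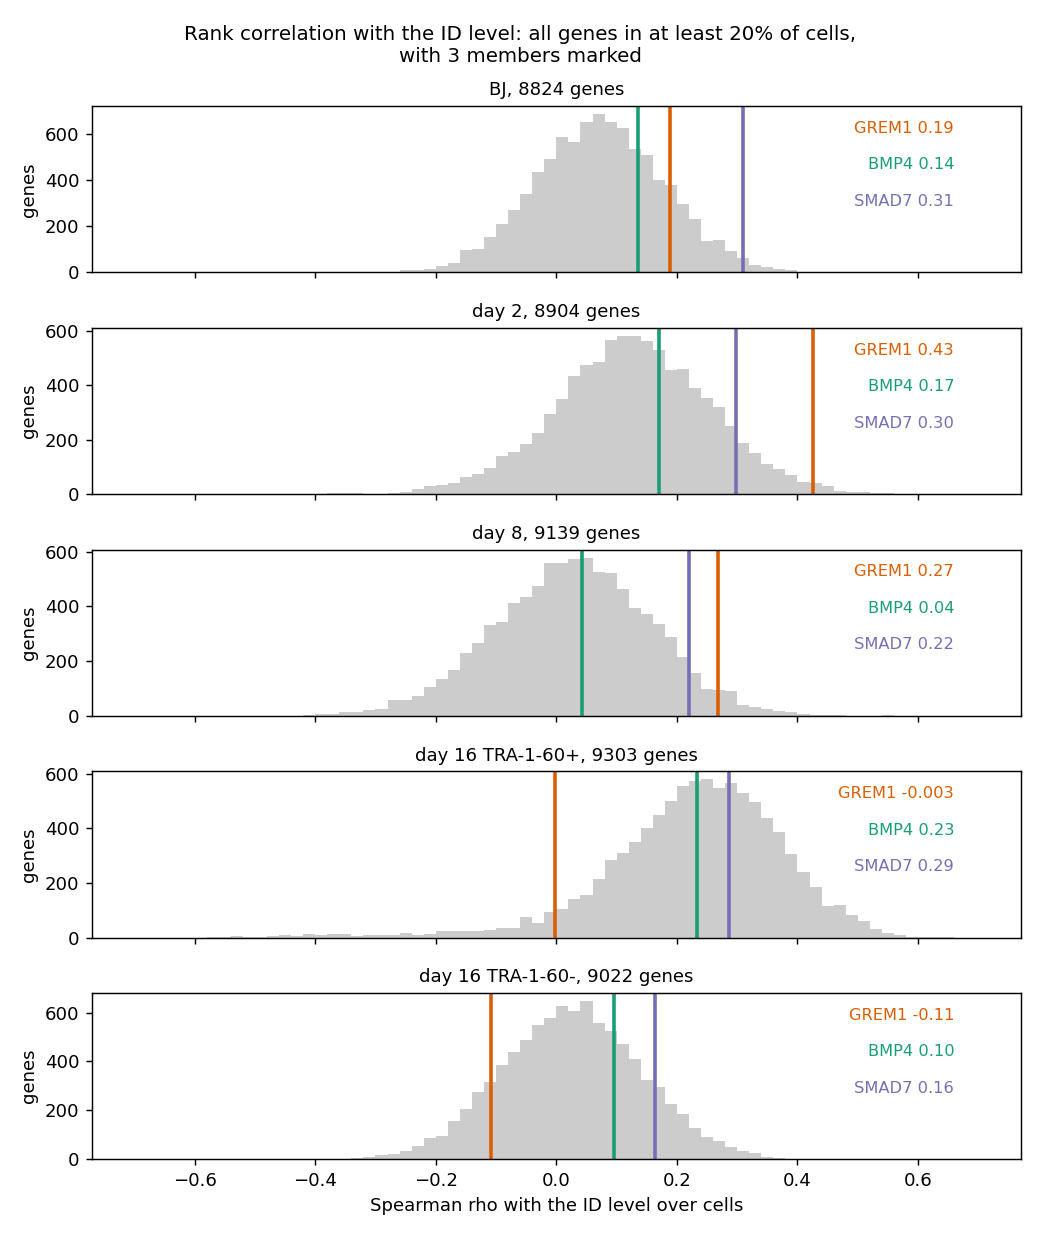
Histograms of Spearman's rho with the ID level (horizontal axis) for all genes in at least 20% of a group's cells (vertical axis, number of genes), with coloured lines for GREM1, BMP4 and SMAD7, 1 panel per group. BMP4 in BJ and day 2 cells and GREM1 in the positive fraction have lines although detected in under 20% of cells. The GREM1 line is in the right tail of the histogram at day 2 (0.43, above 98.9% of genes) and left of its centre in the negative fraction (-0.11). The whole histogram is shifted right in the positive fraction (median 0.24).

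By mean levels, several members were lower at day 2 than in BJ cells and none was higher past the 2-fold limit. A gene counts as called here where the log2 ratio of means, each plus 1, is at least 1 in size and the mean of log2 values differs in the same direction, among genes whose mean reached 1 in at least 1 of the compared groups. From BJ cells to day 2, 3 of the 6 members measured were lower and 0 were higher, where 12.1% of all 12480 genes measured were lower and 12.2% were higher. The called members were ID3 (log2 ratio -2.09), GREM1 (-1.28) and ID4 (-1.27). ID2 (-0.80), SMAD7 (-0.62) and ID1 (-0.52) were not called, and BMP4 and SMAD6 were below the level measured. By the difference of mean log2 values, which weights the typical cell more than the highest cells, ID1 (-1.91) and ID2 (-1.57) also passed the limit and ID4 (-0.65) did not. The median over the 6 was -1.03, against -0.02 over all genes.

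From day 2 to day 8, 4 of 6 measured members were lower and 1 was higher, where 12.5% of 12577 genes were lower and 13% were higher. The 4 were GREM1 (-3.15), ID2 (-1.95), SMAD7 (-1.60) and ID1 (-1.38), and the one higher was BMP4 (4.22). ID3, already lower at day 2, had a log2 ratio of -0.31. The median over the 6 was -1.49, against 0.06 over all genes.

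Both day 16 fractions had more of most members than day 8. The positive fraction was higher in 5 of 7 measured members and lower in 1, where 30.3% of 13719 genes were higher and 11.6% were lower. BMP4 (4.42), ID4 (1.81), SMAD7 (1.66), ID2 (1.63) and ID3 (1.57) were higher and GREM1 (-3.18) was lower, while ID1 was at -0.03, and at 0.19 with housekeeping scaling. By the difference of mean log2 values ID4 (0.62) and SMAD7 (0.87) were not past the limit. The negative fraction was higher in 4 of 7 and lower in 0, where 28.4% of 12965 genes were higher and 10.6% were lower. SMAD7 (2.24), BMP4 (2.14), ID2 (1.57) and ID1 (1.03) were higher, and ID3 (0.82) and GREM1 (-0.36, and 0.02 with housekeeping scaling) were not called. By the difference of mean log2 values ID3 was past the limit, at 2.08. The median over all genes was itself 0.49 in both comparisons, and 1.63 and 1.03 over the 7 members. These comparisons share the day 8 cells.

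Between the sorted fractions the members divided. In the positive against the negative fraction, GREM1 (-2.82) and ID1 (-1.07) were lower and BMP4 (2.28) and ID4 (1.74) were higher, 2 in each direction of 8 measured, where 21.4% of 14060 genes were lower and 24.8% were higher. ID3 (0.75), ID2 (0.06), SMAD7 (-0.57) and SMAD6 (-0.87) were not called. By the difference of mean log2 values, BMP4 was at 0.90, ID3 at -0.12, ID2 at -1.14 and ID1 at -2.16. ID2 and ID3 therefore have no stable order between the fractions. With cells scaled on 12 housekeeping genes ID2 was at 1.36, SMAD7 turned to 0.09 and ID1 was at -0.86, under the limit. ID1 was called on all kept cells but not among cells with at least 4000 genes, where its means were 311 and 543. BMP4 was not called among those cells either, with a log2 ratio of 0.57. ID3 passed the limit there, at 1.22, with means of 373 for positive and 159.8 for negative cells.

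The other genes of the pathway were taken as 62 genes in 6 roles: 14 ligands, 11 receptors and coreceptors, 4 signal-transducing SMADs, 19 inhibitors, 11 target genes and 3 bHLH partners of ID proteins. From BJ to day 2, 11 of 38 measured were lower and 5 were higher, with a median log2 ratio of -0.12, where 12.1% and 12.2% of all genes were lower and higher. Of these 16 calls 11 held without the highest cell of each group; BMP5, ACVR2B, HFE2, SMAD9 and TCF4 did not. The lower genes included TBX3, a T-box transcription factor (15.8 at day 2 and 47.7 in BJ cells), the activin antagonist FST (7.59 and 23.9), the ubiquitin ligase SMURF2 (6.61 and 20.6) and the coreceptor RGMB (19.5 and 44.9). TCF4, a bHLH partner, was also lower by mean (13.5 and 31.5), but 1 BJ cell at 956 decided this, and without the highest cells its log2 ratio was -0.71 and not called. From day 2 to day 8, 8 of 38 were lower and 5 were higher, with a median of -0.36, where 12.5% and 13% of all genes were lower and higher. Lower were the homeobox gene MSX1 (13.3 at day 8 and 63.6 at day 2), the activin antagonist FSTL3 (7.76 and 43.4), the BMP antagonist NBL1 (5.25 and 59.3), the coreceptor ENG (15.3 and 36.5) and the corepressor SKI (2.86 and 11.996). Higher were the transducer SMAD1 (20.3 and 4.69), the BMP and WNT antagonist SOSTDC1 (44.9 and 0.013), the transcription factor HEY1 (14.6 and 0.311) and the pseudoreceptor BAMBI (12.2 and 3.26).

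Between the sorted fractions, 12 of 42 measured pathway genes were lower in the positive fraction and 10 were higher, with a median of 0.15. Over all genes 21.4% were lower and 24.8% were higher, so the higher count is at the level of all genes. It was 6 without the highest cell of each group and 5 by the difference of mean log2 values. Receptors differed within the class, with 3 of 10 measured lower in the positive fraction and 3 higher. BMPR1A, a type I receptor, was higher there (30.4 and 11.5). BMPR2, a type II receptor (11.2 and 33.97), and ENG (2.89 and 42.2) were lower. Among inhibitors, BAMBI (113 and 11.1), FST (107 and 8.02) and the corepressor SKIL (54.7 and 18.5) were higher in the positive fraction, and FSTL3 (1.60 and 42.5) and SMURF2 (2.05 and 28.02) were lower. CER1, a secreted antagonist of BMP and NODAL, had a mean of 42.8 in the positive fraction, 12.9 without its highest cell, and was listed at 0 in every negative cell. TBX3 (7.67 and 30.9) and TCF4 (20.4 and 99.1) were lower in the positive fraction. DLX5 was called higher (75.3 and 0.205), but 1 cell at 7059 carried this: its mean was 0.995 without that cell. GREM1 was thus one of several inhibitors that differed between the fractions, in both directions.

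Against day 8, the positive fraction was lower in 8 of 43 pathway genes and higher in 16 (median 0.73), and the negative fraction lower in 2 of 35 and higher in 19 (median 1.03). Over all genes 11.6% and 30.3% were lower and higher for the positive fraction and 10.6% and 28.4% for the negative fraction, with a median of 0.49 in both. By the difference of mean log2 values the higher counts were 5 and 12. In the positive fraction ACVR1, a type I receptor (14.7, and 4.13 at day 8), and the bHLH gene TCF3 (23.9 and 8.65) were higher, as were FST, BAMBI, SKIL and BMPR1A, while ENG and the transcription factor GATA2 (3.79 and 15.6) were lower. In the negative fraction BMPR2 (33.97 and 4.13), HEY1 (47.9 and 14.6), TCF4 (99.1 and 17.5), TCF12 (59.6 and 20.4), SMURF2 (28.02 and 7.67) and FSTL3 (42.5 and 7.76) were higher and SOSTDC1 (12.2 and 44.9) was lower. All 3 bHLH partners were above their day 8 level by mean in the negative fraction.

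**Figure D5:**
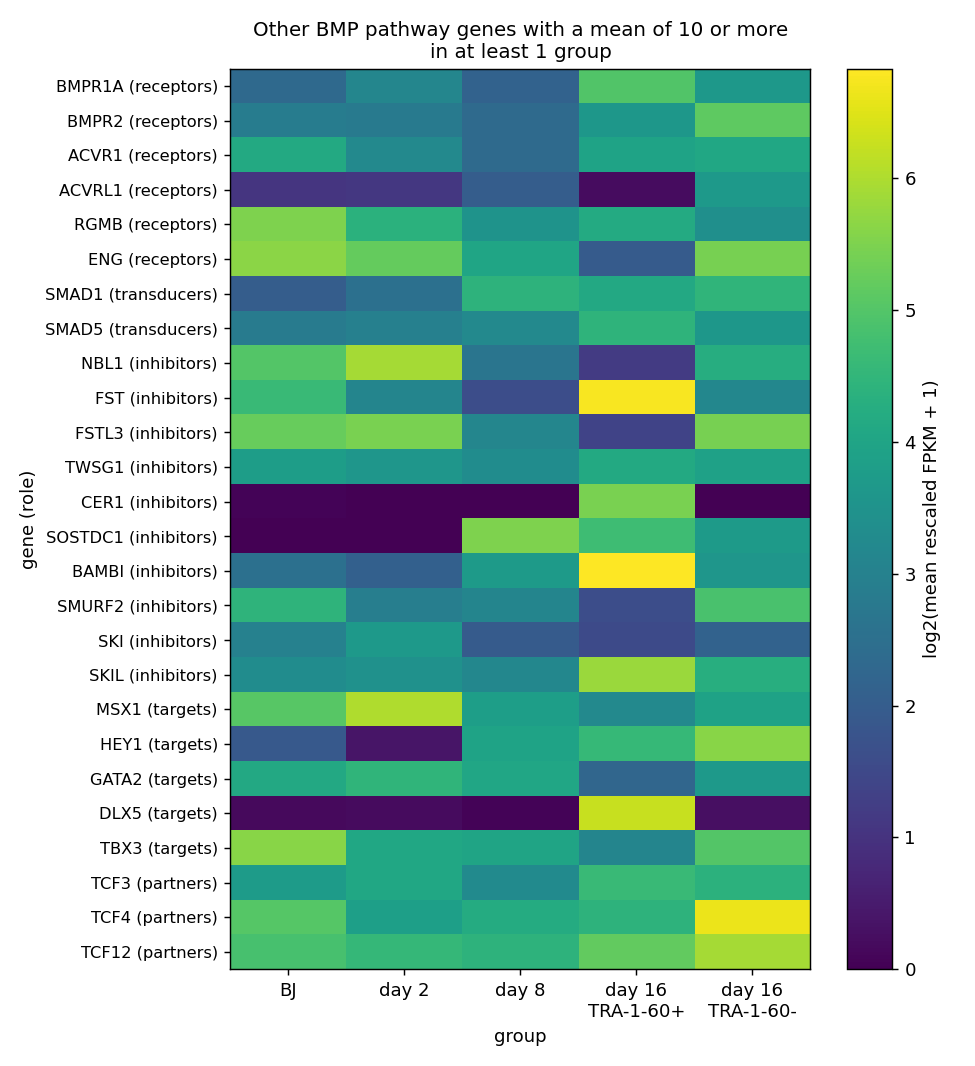
Mean rescaled FPKM, as log2(mean + 1) in colour, of the other BMP pathway genes with a mean of 10 or more in at least 1 group, with genes in rows ordered by role and the 5 groups in columns. The rows of FST and BAMBI are brightest in the TRA-1-60 positive fraction (107 and 113), and FSTL3, ENG, SMURF2 and TCF4 are brighter in the negative than in the positive fraction.

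Genes whose cell-to-cell pattern was most like the ID level were named by the mean of the 5 within-group rho values, over 6770 genes detected in at least 20% of cells of every group. These were HES1, a NOTCH target and bHLH repressor (mean rho 0.37), IFI27L2 (0.34) and the immediate early transcription factor FOS (0.34). Next came the tropomyosin TPM2 (0.34) and the phosphatase DUSP1 (0.31), where the median gene had 0.11. The mean hides differences between groups: in negative cells the rho was 0.17 for IFI27L2, 0.40 for FOS, 0.02 for TPM2 and 0.19 for DUSP1. HES1 had a rho of 0.11 in BJ, 0.55 at day 2, 0.38 at day 8, 0.29 for positive and 0.51 for negative cells, and its mean was 235 in BJ cells, 63.1 at day 2, 38.4 at day 8, 32.6 for positive and 134 for negative cells. For GREM1, over the 4 groups with GREM1 in at least 20% of cells and 7259 genes, the most alike were the matrix genes THBS1 (0.37), FN1 (0.34) and CTGF (0.32), and the cytoskeletal genes NEXN (0.31) and DSTN (0.30), where the median gene had 0.04. Mean THBS1 was 639 for BJ cells, 298 for day 2, 37.2 for day 8, 3.12 for positive and 214 for negative cells. All of these values run over cells of groups that were treated as 1 sample each, and which cells shared a chip is not given.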

How the data were processed

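Single-cell mRNA libraries (480 cells, 5 groups of 96) were made on C1 chips from polyadenylated RNA with Nextera XT, per the labels' protocols. The authors deposited FPKM values in 5 tables; STAR, Cuffnorm and hg19 are named in the submitters' processing notes, and versions are not given in the sources used here. FPKM hold no read counts, so depth and sampling error are unknown, and the sources used here do not say if Cuffnorm was run once for all tables. Each cell was rescaled to 1000000, which ties every gene to the others in that cell. Cells with under 2000 genes at 1 or more, or without ACTB and GAPDH at 1 or more, were left out (4 BJ, 0 day 2, 4 day 8, 1 TRA-1-60 positive and 11 negative cells). Fold changes are log2 ratios of means with a pseudocount of 1, which understates changes of low genes, over genes whose mean reached 1 in at least 1 of the groups compared. No count model was used. With 1 sample per group no test was run, and correlations over cells are Spearman's rho with no p-value. The members and gene lists were chosen with earlier results of these data known. Named genes were all 8 members, pathway genes called with a mean of 10 or more in the higher group (at most 6 per comparison and direction), and the 5 genes most like the ID level and GREM1. The steps were tested on simulated data. Python 3.11.15, numpy 2.4.6, pandas 2.3.3, scipy 1.17.1 and matplotlib 3.10.9 were used.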

Additional observations from a re-analysis of the deposited data

How the results depend on the processing

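Each group is 1 sample and the calls are sizes, not tests. No paired analysis was possible because the shared replicate numbers only number cells and no test was run. Over the alternatives, 111 counts of called members kept within 1.5 times the value given and 9 did not, with 88 and 32 for pathway counts. No member that was called turned its direction. Between the TRA-1-60 fractions, members lower in the positive fraction numbered 1 with scaling on 12 housekeeping genes and 1 among cells with at least 4000 genes (GREM1 in both), 1 with a pseudocount of 10 and 1 with a mean of 10 required (ID1 in both), and 4 by the difference of mean log2 values. Members higher there numbered 1 with a pseudocount of 10, 1 with a mean of 10 required and 0 by the difference of mean log2 values, which also gave 3 members higher in the positive fraction than at day 8. The log2 ratio of BMP4 between the fractions ranged from 0.57 to 4.35, that of ID2 from -1.14 to 1.36 and that of ID3 from -0.12 to 1.22. For pathway genes between BJ and day 2, the higher count was 8 on FPKM as deposited, 9 with housekeeping scaling, 0 with a pseudocount of 10, 0 with a mean of 10 required and 2 by mean log2, and the lower count 1, 5 and 4 under the last 3. From day 2 to day 8 the lower count was 19 with housekeeping scaling, 3 with a pseudocount of 10 and 5 with a mean of 10 required, and the higher count 9 with a pseudocount of 0.1, 3 with a pseudocount of 10 and 3 by mean log2. Between the fractions the higher pathway count was 18 with housekeeping scaling, 5 with a pseudocount of 10, 6 with a mean of 10 required, 6 without the highest cell of each group and 5 by mean log2. For the positive fraction against day 8 the lower count was 5, 0 and 2, and the higher count 26, 6 and 9, with housekeeping scaling, a pseudocount of 10 and a mean of 10 required, and the higher count 5 by mean log2. For the negative fraction against day 8 the lower count was 1 with a pseudocount of 10, 1 with a mean of 10 required, 1 without the highest cells and 0 by mean log2, and the higher count 7 with a pseudocount of 10 and 12 by mean log2. The rho of GREM1 with the ID level was 0.050 in BJ cells on FPKM as deposited, 0.027 in the negative fraction with no filter on cells and -0.14 in the positive fraction with the number of genes held fixed; over all alternatives it stayed between 0.36 and 0.45 at day 2. FPKM as deposited moved the median of all genes to 0.17 from BJ to day 2, -0.12 from day 2 to day 8, 0.18 between the fractions, 0.33 for the positive and 0.23 for the negative fraction against day 8. Housekeeping scaling moved the median of all genes to -0.33 from day 2 to day 8, 0.71 between the fractions, 1.18 for the positive and 0.69 for the negative fraction against day 8. As a share of all called genes, the higher ones were 50.2%, 51.01%, 53.6%, 72.4% and 72.8% in the 5 comparisons in the order BJ to day 2, day 2 to day 8, between the fractions, positive and negative against day 8. They were 65.5%, 37.4%, 58.4%, 65.4% and 58.95% on FPKM as deposited and 48.9%, 30.3%, 68.5%, 85.1% and 78.4% with housekeeping scaling. The cause of these shifts was not tested.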

Other observations

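Other ligands and receptors of the pathway also differed by mean level between the TRA-1-60 fractions. BMP6 had a mean of 8.88 in the negative and 1.02 in the positive fraction, and BMP2 5.84 and 2.09. The type I receptor gene ACVRL1, best known from endothelium, was at 12.1 and 0.180, with 55.3% of negative and 3.16% of positive cells detected, while the activin type II receptor ACVR2B was at 0.326 and 8.32, with 8.24% and 64.2% detected. These 4 genes were chosen after their values were seen.

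Several high means rest on few cells that a reader may want to look at again. In the TRA-1-60 positive fraction, the 32 cells with under 4000 genes had a mean ID2 of 187 and a mean BMP4 of 964, against 95.4 and 129 in the other 63, while ID1 and ID3 had lower means there (141 and 38.99, against 311 and 373). BMP4 was detected in 13 of these 32 cells, and its mean there was 559.7 without 1 cell at 13504. The mean ID2 there was 139 without its highest cell, at 1669.7.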
